A study of Homo sapiens with 32 samples.

Results

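The regions described here are the copies of the U small nuclear RNA (snRNA) genes in the human genome, and which of them carried ZNF143, SP1, NRF1 or YY1 in HEK293T cells. The members are every gene of type snRNA in the GENCODE 44 annotation on chromosomes 1 to 22 and X, 1884 of the 62062 annotated genes there, each taken as the 500 bp on either side of its 5′ end. The measurement was chromatin immunoprecipitation and sequencing (ChIP-seq), and the deposited values are 4 lists of peak summits, which are the single positions of highest signal within peaks. The cells were HEK293T, a line from human embryonic kidney, and all came from 1 clone, HEK_CloneZD29, in which ZNF143 bears an inducible degron tag. No group lacked the tag. Samples were either untreated or given 50 nM dTAGV-1, which triggers loss of the tagged protein, for 30 min. SP1, NRF1 and YY1 were each precipitated in 4 untreated and 4 treated samples, and ZNF143, through its HA tag, in 2 and 2, as was a mock precipitation, which makes 32 samples. Each list covers 1 antibody and gives no value per sample or treatment, so untreated and treated cells were not compared and the values have no replicate error. On these chromosomes the ZNF143 list held 16165 summits, the SP1 list 126181, the NRF1 list 39180 and the YY1 list 106578. The lists do not give the depth of the libraries, on which the number of summits depends.

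The U snRNAs are short RNAs of the machinery that removes introns. U1, U2, U4, U5 and U6 serve the major spliceosome, U11, U12, U4atac and U6atac serve the minor one, and U7 takes part in trimming histone messenger RNAs. RNA polymerase II transcribes most of these genes and RNA polymerase III transcribes U6 and U6atac. Their promoters are compact: a proximal sequence element, bound by the complex SNAPc, lies just upstream of the start, and further upstream a distal sequence element holds an octamer, bound by OCT1, and often a site for ZNF143 (also called STAF). The genome also holds a large number of inserted copies of the RNAs themselves, and the annotation gives most of these a name ending in P, for pseudogene.

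Of the 1884 copies, 1761 have a name ending in P, 50 have a gene symbol without P, 69 are named by their U type only ("U2", "U6") and 4 have no U name. The 50 with a gene symbol are 31 U1 copies (RNU1 and the variant U1 genes RNVU1), 6 U6, 5 U5, 2 U4 and 1 each of U2, U4atac, U6atac, U7, U11 and U12. U6 is the most numerous type, with 1302 copies, of which 1263 are named P.

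The promoter sequences on which the results turn are shown from 250 bp before the 5′ end through the first 10 bases of the gene, 5′ to 3′ on the gene's strand, from the hg38 reference. Capitals mark the sequence patterns that were searched. These were the proximal sequence element, written as TNACC, 5 bases, TNNAA and starting 75 to 45 bp before the 5′ end on the gene's strand, and the octamer ATGCAAAT and the ZNF143 consensus, each on either strand within 300 bp before it. A match is a description of the letters and not evidence of a bound site. The first set shows 4 strongly occupied promoters of different U types.
RNU5B-1, chr15:65304427-65304686, plus strand: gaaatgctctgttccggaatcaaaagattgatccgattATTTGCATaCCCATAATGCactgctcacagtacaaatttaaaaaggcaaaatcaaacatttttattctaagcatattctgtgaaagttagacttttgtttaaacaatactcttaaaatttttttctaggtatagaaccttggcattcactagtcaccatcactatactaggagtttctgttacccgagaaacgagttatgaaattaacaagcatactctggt
RNU4-2, chr12:120291894-120292153, minus strand: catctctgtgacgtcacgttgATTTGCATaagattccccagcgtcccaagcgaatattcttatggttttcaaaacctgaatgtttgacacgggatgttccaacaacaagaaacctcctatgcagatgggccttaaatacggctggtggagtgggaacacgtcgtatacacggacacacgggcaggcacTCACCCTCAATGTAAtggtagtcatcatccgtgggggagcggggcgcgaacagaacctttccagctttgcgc
U2, chr17:43284320-43284579, minus strand: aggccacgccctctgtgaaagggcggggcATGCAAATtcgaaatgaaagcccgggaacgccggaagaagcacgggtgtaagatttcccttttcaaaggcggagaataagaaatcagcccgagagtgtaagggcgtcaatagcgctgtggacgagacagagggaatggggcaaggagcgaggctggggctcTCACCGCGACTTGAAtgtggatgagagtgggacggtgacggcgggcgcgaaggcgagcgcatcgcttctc
RNU1-4, chr1:16740266-16740525, plus strand: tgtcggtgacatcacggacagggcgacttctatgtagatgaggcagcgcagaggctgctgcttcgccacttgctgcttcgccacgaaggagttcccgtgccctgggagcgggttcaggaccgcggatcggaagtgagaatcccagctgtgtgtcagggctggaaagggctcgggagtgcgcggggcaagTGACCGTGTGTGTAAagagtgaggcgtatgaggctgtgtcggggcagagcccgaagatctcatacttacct
RNU5B-1 holds an octamer at −212 and the ZNF143 consensus at −203, next to each other. RNU4-2 and the U2 copy hold an octamer, at −229 and −221, and a proximal sequence element at −62 and −60. RNU1-4 holds only the proximal sequence element, at −61. The second set shows a U6 promoter with summits of all 4 lists, RNU6-1, which holds an octamer at −221 and a proximal sequence element at −65, and the highest-scoring copy with a P name, RNU1-28P, which holds none of the patterns in the exact letters searched. With 1 mismatch allowed it holds the proximal sequence element.
RNU6-1, chr15:67840036-67840295, minus strand: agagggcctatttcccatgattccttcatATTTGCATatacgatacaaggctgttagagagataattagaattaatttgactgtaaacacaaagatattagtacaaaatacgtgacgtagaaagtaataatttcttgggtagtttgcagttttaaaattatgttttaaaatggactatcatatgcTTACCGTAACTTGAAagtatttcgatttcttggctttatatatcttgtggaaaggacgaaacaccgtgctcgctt
RNU1-28P, chr14:34556380-34556639, minus strand: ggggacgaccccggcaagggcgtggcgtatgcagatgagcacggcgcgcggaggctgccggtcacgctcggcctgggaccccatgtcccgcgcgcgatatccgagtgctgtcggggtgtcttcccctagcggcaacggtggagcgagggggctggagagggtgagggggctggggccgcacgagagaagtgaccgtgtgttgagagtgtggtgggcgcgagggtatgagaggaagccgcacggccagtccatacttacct

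Of the 64 copies with a ZNF143 summit, 42 had a gene symbol, and few copies with P names had one. Within 500 bp, ZNF143 summits were present at 42 of 50 copies with a gene symbol (84.0%, Wilson 95% interval 71.5 to 91.7), at 13 of 69 named by type only (18.8%, 11.4 to 29.6) and at 8 of 1761 named P (0.454%, 0.230 to 0.894). Among all annotated genes 13.8% had a ZNF143 summit in the same window, and among protein-coding genes 31.7% did. For SP1 the counts were 42 of 50 with a symbol, 14 of 69 by type only and 68 of 1761 named P (3.86%, 3.06 to 4.87), beside 28.4% of all genes and 59.1% of protein-coding genes. NRF1 was found at 38 of 50 (76.0%), 0 of 69 and 22 of 1761 (1.25%), beside 21.5% and 48.3%. Of the 69 copies named by type only, 15 lie where the numbering of the NRF1 or YY1 peaks skips, so summits can be missing from those lists and absence cannot be read there. YY1 was found at 41 of 50 (82.0%), 4 of 69 and 49 of 1761 (2.78%), beside 27.6% and 57.8%. Copies with a gene symbol therefore had summits more often than protein-coding genes in each list, and copies named P less often than genes at large.

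**Figure D1:**
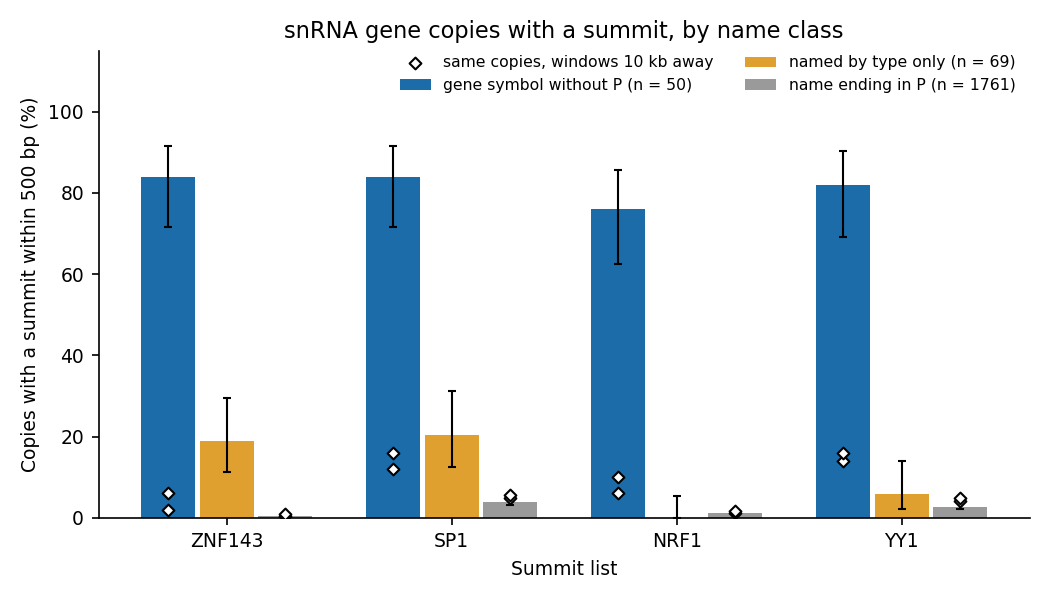
Share of snRNA gene copies with a summit within 500 bp of the 5′ end (vertical axis, percent) for the 4 lists, by name class, with Wilson 95% intervals as error bars and open diamonds for windows 10 kb before and after the same copies (symbol and P classes). Copies with a gene symbol stand at 76.0% to 84.0%, far above their flanks, and copies named P at 0.454% to 3.86%, within or below the range of theirs.

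In the class with gene symbols, the 4 factors were mostly found at the same copies. All 4 lists had a summit at 38 of the 50 copies with a gene symbol, ZNF143 with SP1 and YY1 at 3, and ZNF143 with SP1 at 1, while 8 had no summit of any list. No copy with a gene symbol had a summit of another factor in the absence of ZNF143. Among the 1761 copies named P, 1664 (94.5%) had no summit, 5 had all 4, and 89 had SP1, NRF1 or YY1 without ZNF143. Over all 1884 copies, 1727 (91.7%) had none.

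Names not ending in P, those by type only included, were compared with P names over the 1880 copies with a U name by two-sided Fisher's exact tests, adjusted by Benjamini-Hochberg over the 4 lists. For ZNF143 the counts were 55 of 119 (46.2%) against 8 of 1761, an odds ratio of 188 (exact test, 95% interval 86.1 to 412, adjusted p = 9.52e-63). For SP1 they were 56 of 119 (47.1%) against 68 of 1761, an odds ratio of 22.1 (exact test, 14.3 to 34.2, adjusted p = 4.46e-39). In the exact tests NRF1 gave an odds ratio of 37.1 (21.0 to 65.6, adjusted p = 3.83e-33) and YY1 one of 21.2 (13.3 to 33.9, adjusted p = 2.67e-32). Copies derive from each other and share sequence, so they are not independent replicates, and these p-values describe how summits are arranged over the copies in these lists.

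Copies named P had summits no more often than their surroundings. In windows of the same length centred 10 kb before and 10 kb after the copies named P, ZNF143 summits were found at 0.398% and 0.965%, SP1 at 4.83% and 5.51%, NRF1 at 1.31% and 1.76%, and YY1 at 4.09% and 5.00%. The copies themselves, at 0.454%, 3.86%, 1.25% and 2.78%, lay within or below these ranges. The corresponding flanks of copies with a gene symbol had ZNF143 at 6% and 2%, SP1 at 16% and 12%, NRF1 at 10% and 6%, and YY1 at 14% and 16%, against 76.0% to 84.0% at the copies. The SP1, YY1 and NRF1 scores differed in the same way, and those of ZNF143 differed little. The score is the authors' −log10 of a p- or q-value for each summit and was compared only within a list. At copies with a gene symbol the median SP1 score was 1259, a value that only 1.42% of the SP1 list reached, and at copies named P it was 16.2, which 46.8% of the list reached. The median YY1 score was 365 against 13.8, reached by 4.09% and 52.2% of its list. That of NRF1 was 19.5 against 4.27, reached by 25.7% and 64.9% of its list. For ZNF143 the median was 3263 at the 42 copies with a gene symbol and 2519 at the 8 named P. These were reached by 7.58% and 8.87% of the ZNF143 list. At protein-coding genes with a summit the median NRF1 score was 48.0, above that of copies with a gene symbol. For SP1 and YY1 the protein-coding medians, 197 and 139, were below those of copies with a gene symbol.

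The positions of the SP1 and YY1 summits also separated these classes, and those of ZNF143 and NRF1 did not. At the 42 copies with a gene symbol the ZNF143 summit had a median offset of −138.5 bp (quartiles −151.5 and −133, negative values being upstream), and 29 of them fell 150 to 110 bp before the 5′ end. The 8 copies named P with a ZNF143 summit had a similar median of −133.5 (quartiles −138 and −116.75). At protein-coding genes with a ZNF143 summit the median was −19 (quartiles −112 and 107). SP1 at copies with a gene symbol lay at a median of −22 (quartiles −58.5 and 29), and YY1 at +123 (quartiles 76 and 154), inside or just past the short transcribed region. At copies named P the SP1 summits ranged from −489 to 498 with quartiles of −252 and 184, and the YY1 summits had quartiles of −221 and 198. Spread over nearly the whole window, they showed no preferred place relative to the gene in the class as a whole. The 6 copies named P with a ZNF143 score above 100 differed from this. Their SP1 summits lay at −18 to +30, and YY1 summits, present at 4 of them, at +107 to +201. NRF1 summits were spread out in both classes. Their quartiles were −196.75 and 103 at copies with a gene symbol and −197.75 and 173.5 at copies named P.

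**Figure D2:**
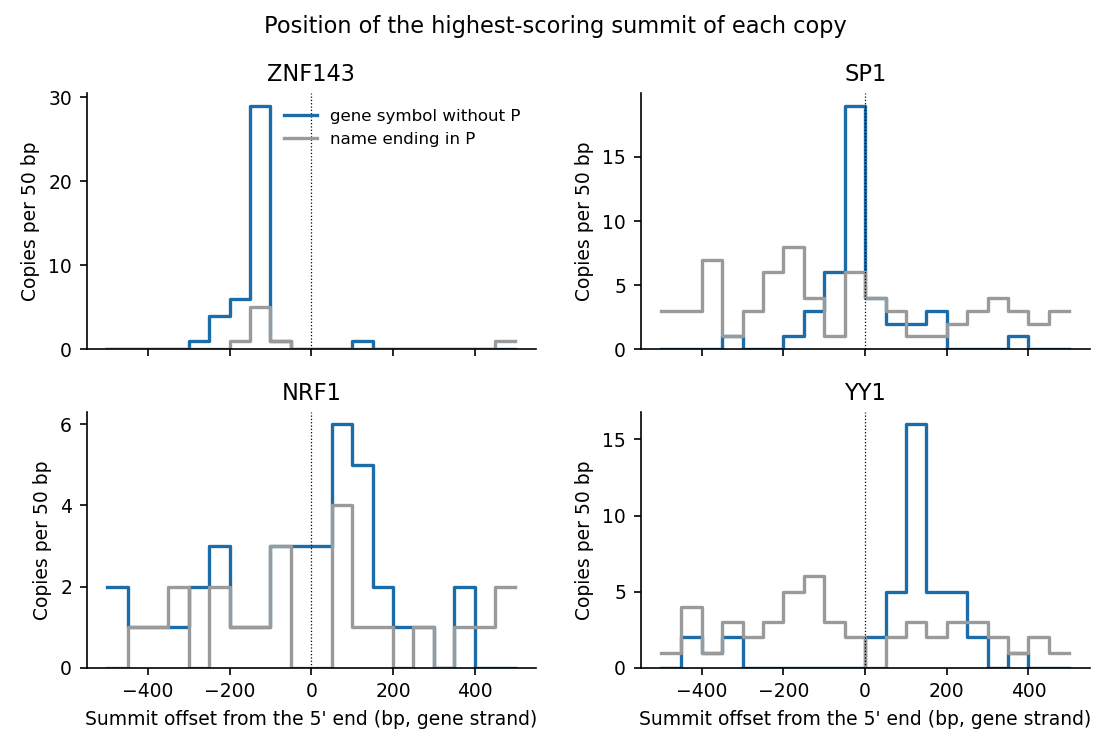
Number of copies per 50 bp (vertical axis) by the offset of the highest-scoring summit from the 5′ end on the gene's strand (horizontal axis, bp), for copies with a gene symbol (blue) and copies named P (grey), 1 panel per list. The blue lines peak before the 5′ end for ZNF143 (median −138.5), at it for SP1 (median −22) and after it for YY1 (median +123), and the grey SP1, NRF1 and YY1 lines have no common peak.

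Among the polymerase II types, the U5 promoters resembled each other. All 5 U5 copies with a gene symbol had summits of all 4 lists, with ZNF143 scores of 3704 at RNU5E-1, 4269 at RNU5F-1, 4652 at RNU5A-1, 5359 at RNU5D-1 and 9662 at RNU5B-1, the highest of any copy. Their ZNF143 summits lay at −145 to −124, their SP1 summits at −25 to −2 and their YY1 summits at +103 to +129, so that each of these factors kept its place over all 5 genes, which lie on chromosomes 1 and 15. Their U4 counterparts, RNU4-1 and RNU4-2, sit next to each other on chromosome 12, and both had the ZNF143 summit at −133, with scores of 7131 and 7590. Their YY1 summits lay at +134 and +132, and their SP1 scores were 1710 and 3151.

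The minor spliceosome genes were occupied as well, apart from a weak U6atac. RNU12 on chromosome 22 had a ZNF143 score of 8120 at −184, RNU11 on chromosome 1 had 4617 at −128, and RNU4ATAC, in an intron of CLASP1 on chromosome 2, had 3238 at −139. RNU11 stood out for NRF1, with a score of 3078 at −273, where no other copy with a gene symbol exceeded 562. The 5′ end of the protein-coding gene TAF12 lies 309 bp from that of RNU11, and which of them the NRF1 summit belongs to was not tested. The highest-scoring YY1 summit of RNU12, with a score of 1745, was at −420, and a second lay 77 bp from the 5′ end. The 5′ end of POLDIP3 lies 282 bp from that of RNU12. RNU6ATAC had a ZNF143 score of only 45.3, at −299, with an SP1 score of 1025 at −312 and no NRF1 summit. The numbering of the NRF1 peaks skips 1 number there, so this lack of an NRF1 summit cannot be read. RNU7-1, which lies in an intron of C12orf57, had a ZNF143 score of 16.2 at +102, beside SP1 with 2106 at −16 and YY1 with 471 at +101.

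**Figure D3:**
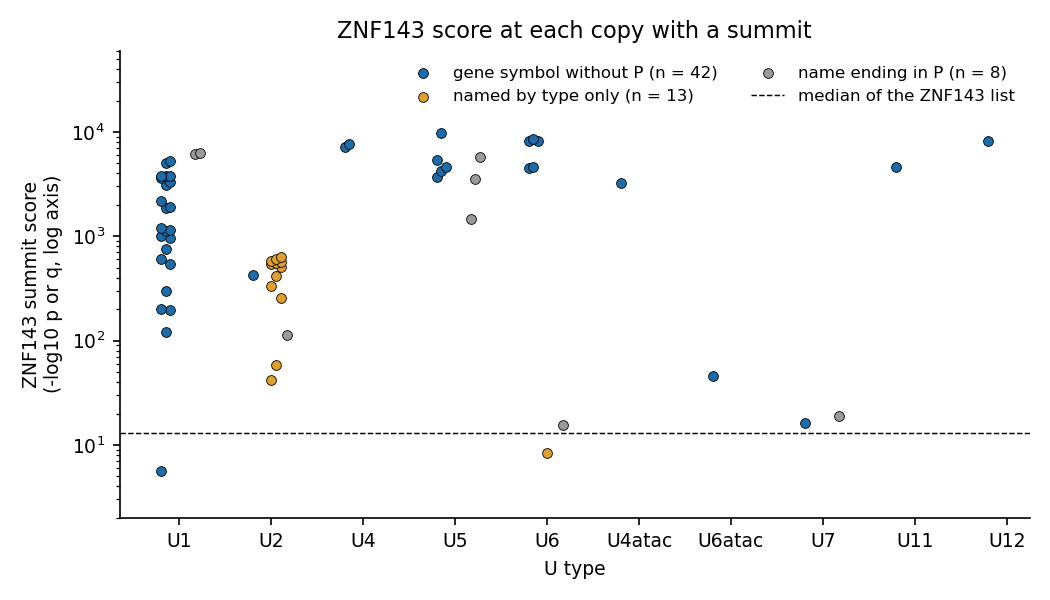
ZNF143 summit score (vertical axis, −log10 of p or q, log axis) of each copy that has a summit, by U type, with points coloured by name class and a dashed line at the list's median. U4, U5, U6, U11 and U12 copies with a gene symbol lie between 3704 and 9662, U1 copies spread from 5.61 to 5311, and the U2 array stays at or below 628.

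U1 copies were uneven. Of 31 U1 copies with a gene symbol, 24 had a ZNF143 summit, with scores from 5.61 at RNVU1-23 over a median of 1186 to 5311 at RNVU1-8, and these 24 all had SP1 and YY1 summits. The 4 classical U1 genes on the short arm of chromosome 1 had scores of 3288 (RNU1-1), 1880 (RNU1-2), 3778 (RNU1-3) and 3818 (RNU1-4). RNVU1-34, in an intron of TEX14 on chromosome 17, had 2172 at −136, and 99.5% of its window is unique sequence. At 4 RNVU1 copies (RNVU1-14, RNVU1-15, RNVU1-27 and RNVU1-29) the highest-scoring ZNF143 summit lay further out, at −233 to −204, with scores of 541 to 1115. A second, lower-scoring ZNF143 summit lay 90, 101 and 93 bp from the 5′ ends of RNVU1-15, RNVU1-27 and RNVU1-29. The SP1 summits of RNVU1-14, RNVU1-15 and RNVU1-27 lay inside the gene, at +147, +160 and +150. That of RNVU1-29, at +189, lay past the end of its 164 bases. Only 35.0% to 44.5% of the 31-base words in the windows of these 4 copies occur once in the genome.

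The 8 copies with a gene symbol and no summit of any list were 7 of the RNVU1 group (RNVU1-1, RNVU1-17, RNVU1-24, RNVU1-25, RNVU1-26, RNVU1-32 and RNVU1-33) and RNU6V. Of the 7 U1 copies, 5 hold a proximal sequence element at −61, as do 22 of the 24 occupied U1 copies. RNVU1-1 and RNVU1-17 have upstream sequence 88.8% and 83.2% identical to the most similar U1 copy with a gene symbol. These most similar copies are RNVU1-25 and RNVU1-1, which themselves had no summit. The windows of RNVU1-1 and RNVU1-17 are 86.0% and 93.5% unique. The numbering of the NRF1 peaks skips 101 numbers at RNVU1-17, so its lack of an NRF1 summit cannot be read. RNVU1-24, RNVU1-25 and RNVU1-26 are 98.0% to 100% identical upstream to one another, and their windows are 9.58%, 26.8% and 0% unique. RNU6V lies in an intron of GNAI3 on chromosome 1, and its gene is 91.6% identical to another U6 copy.

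U2 copies form a tandem array. RNU2-1 and 12 copies named only "U2" lie at chr17:43233787-43300231 on the minus strand, and all 13 had both a ZNF143 and an SP1 summit. Their ZNF143 scores ran from 42.1 to 628, below those of the occupied U4, U5 and U6 copies with a gene symbol. Their SP1 scores ran from 1790 to 6555, which was the highest of any copy, with 4364 at RNU2-1 itself. Outside the array the highest SP1 scores were 4003 at RNU2-2P, 3972 at RNU11 and 3714 at RNU5B-1. Each of the 13 holds the octamer and the proximal sequence element, as printed for the copy with the highest ZNF143 score. None had an NRF1 or YY1 summit. The numbering of the peaks skips 20 NRF1 and 29 YY1 numbers across the array, so summits there can be missing from these 2 lists, and absence of NRF1 and YY1 cannot be read from them. At most 29.4% of the 31-base words around these copies are unique, and how reads that fit several copies were placed is not given in the sources used here. Of the 16 copies that had ZNF143 with neither NRF1 nor YY1, 15 lie where the YY1 numbering skips.

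The polymerase III types differed from the others in the place of SP1. At the 5 occupied U6 copies with a gene symbol, SP1 lay at −155 to −77, 13 to 58 bp downstream of the ZNF143 summit. At RNU6ATAC the SP1 summit lay at −312, next to ZNF143 at −299. At RN7SK, a polymerase III gene in the annotation's snRNA class without a U name, it lay 15 bp from ZNF143 (score 6006 at −137). All 7 thus had SP1 within 60 bp of ZNF143, against 4 of the 36 polymerase II copies with a gene symbol and a ZNF143 summit, where SP1 lay a median of 121 bp further downstream. The ZNF143 scores of the 5 U6 copies were high, from 4559 at RNU6-7 and 4636 at RNU6-9 to 8202 at RNU6-1, 8276 at RNU6-8 and 8548 at RNU6-2. Their SP1 scores, 136 to 576, were low beside the medians of 1193 at U1 copies and 2326 at U5 copies. Within the whole SP1 list, only 3.95% to 14.7% of summits reached the scores of these 5 U6 copies. Their NRF1 scores were 137 to 562, with summits 45 to 72 bp after the 5′ end, against a median of 11.6 at U1 copies. The highest-scoring YY1 summits of RNU6-2 and RNU6-9 lay at −413 and −376, near the protein-coding 5′ ends of TMEM259 (343 bp) and MED16 (266 bp). RNU6-2 had a second YY1 summit, 81 bp from its 5′ end. This grouping by polymerase was made after the values were seen and was not tested.

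U6 copies allow the transcribed sequence to be held constant. The 107 bases of RNU6-1 occur without any difference at 7 places on these chromosomes. ZNF143 summits were found at 3 of them, RNU6-1, RNU6-2 and RNU6-9, and at none of the other 4, which all have names ending in P. These 4 had no summit of SP1, NRF1 or YY1 either. Their 250 bp of upstream sequence was 46.8% to 50.0% identical to the most similar U6 copy with a gene symbol, close to the median of 47.6% over all U6 copies without a ZNF143 summit. With genes at least 99% identical counted, 12 U6 copies named P had 0 summits of any list, and all 5 U6 copies with such genes and a gene symbol had all 4 factors. The occupied U6 promoters are themselves diverse, with a median upstream identity of 52.8% to the most similar of the others.

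For U1, 2 copies named P had a ZNF143 summit. RNU1-27P and RNU1-28P, on opposite strands of chromosome 14, have a gene identical to that of RNU1-1 behind an upstream region 59.2% identical to the most similar U1 copy with a gene symbol. The median of this identity was 47.6% over U1 copies without a ZNF143 summit and 93.6% over those with one. Most U1 copies without a summit have P names. Among U1 copies with a gene symbol the median was 88.8% without a summit and 94.4% with one. RNU1-27P and RNU1-28P both match the proximal sequence element with 1 mismatch. Their ZNF143 scores, 6090 at −133 and 6290 at −134, were above those of all U1 copies with a gene symbol, and their SP1 scores were 1535 and 1649. The upstream sequence printed for RNU1-28P is the same at RNU1-27P, 0% of the words in their windows are unique, and 3 NRF1 and 3 YY1 numbers are skipped there. The gene of RNU1-1 occurs 8 times on chromosomes 1 to 22 and X, and all 8 places had a ZNF143 summit.

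**Figure D4:**
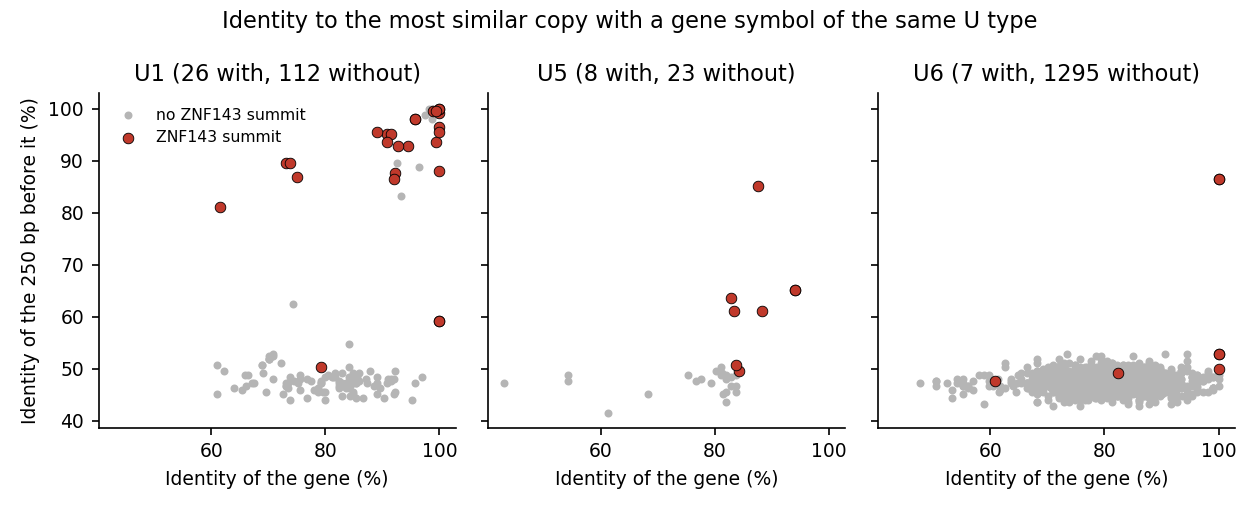
Identity of the 250 bp before the gene (vertical axis, percent) against identity of the gene itself (horizontal axis, percent), each to the most similar copy of the same U type with a gene symbol, for U1, U5 and U6, with copies that have a ZNF143 summit in red and the others in grey. U6 copies reach 100% identity of the gene without a summit while their upstream identity stays near 47.6%, and 23 of the 26 occupied U1 copies lie above 80% on the vertical axis. Unoccupied U1 copies reach up to 100% on that axis as well.

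The other copies named P with a ZNF143 summit fell into a strong and a weak set. Among 3 U5 copies, RNU5E-4P on chromosome 1 had a ZNF143 score of 3572 at −130 and RNU5A-8P, in an intron of HHAT, had 1465 at −144, with SP1 scores of 988 and 795. All 3 of these U5 copies had SP1, NRF1 and YY1 summits and an octamer at −222 to −211, like most U5 genes with a symbol. The other 23 U5 copies named P had neither a ZNF143 summit nor any of the 3 patterns. RNU2-2P, whose 5′ end coincides with that of the protein-coding gene WDR74 on chromosome 11, had a weak ZNF143 score of 113 at −77 beside an SP1 score of 4003 at −8. RNU7-27P (18.9 at −166, 173 bp from the 5′ end of RBM28) and RNU6-818P (15.5 at +489) were near the list's median. RNU6-818P was the only 1 of 1263 U6 copies named P with a ZNF143 summit (0.0792%), and it was also the copy just inside the window. RNU6-92P lay just outside it, with its nearest ZNF143 summit 529 bp away.

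Among copies without ZNF143 and without a protein-coding 5′ end within 1000 bp, the highest scores of the other lists were mostly modest. RNU2-63P on chromosome 2 was an exception that had SP1 (676 at −37), YY1 (214 at +296) and NRF1 (15.0 at −167) and holds an octamer at −216. RNU7-85P had an SP1 score of 1017, but at +498, and RNU7-70P in an intron of CAPZA1 had 350 at +202. YY1 reached 268 at RNU6-239P, at +278, and the next copy was RNU2-23P, with a summit at −30. NRF1 did not exceed 8.33 (RNU6-218P) and 7.69 (RNU6-1196P) at the next copies.

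Over all copies with a U name, sequence patterns of snRNA promoters were much more frequent at copies with a ZNF143 summit. The proximal sequence element was found at 38 of 63 copies with a U name and a ZNF143 summit (60.3%) and at 15 of 1817 without (0.826%), an odds ratio of 183 (95% interval 89.2 to 374, Fisher's exact test adjusted over the 3 patterns, p = 1.09e-49). Of these 38 copies, 22 are U1 copies and 13 belong to the U2 array, which share much of their sequence. Within name classes the contrast was not general. Among copies with a gene symbol, 26 of 42 with a summit and 5 of 8 without held the element. For copies named by type only the counts were 12 of 13 and 1 of 56, and for P names 0 of 8 and 9 of 1753. Without U1 and U2 copies 3 copies with a summit held the element and 20 did not, against 5 and 1625 without a summit, an odds ratio of 48.8 (exact test, adjusted p = 0.000126). Among copies with at least 80% unique words it was 53.6 (exact test, adjusted p = 1.04e-08). The octamer was found at 28 of 63 (44.4%) and 54 of 1817 (2.97%), an odds ratio of 26.1 (exact test, 14.8 to 46.0, adjusted p = 1.83e-23). The ZNF143 consensus was found at 6 of 63 (9.52%) and 25 of 1817 (1.38%), an odds ratio of 7.55 (exact test, 2.98 to 19.1, adjusted p = 0.000425). Over all annotated genes the same windows held the 3 patterns at 0.269%, 2.42% and 2.04%. Copies without a ZNF143 summit were near these shares for the octamer and the consensus. For the proximal sequence element they were above it, at 0.826% against 0.269%. The odds ratio of the consensus was 24.7 without U1 and U2 copies (exact test, adjusted p = 2.09e-06) and 23.4 among unique copies (exact test, adjusted p = 2.60e-06). The consensus call rests on few copies: among U6 copies alone the adjusted p of the exact test was 0.113, and with 1 mismatch allowed 21 of 63 against 485 of 1817 copies matched (adjusted p = 0.249).

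**Figure D5:**
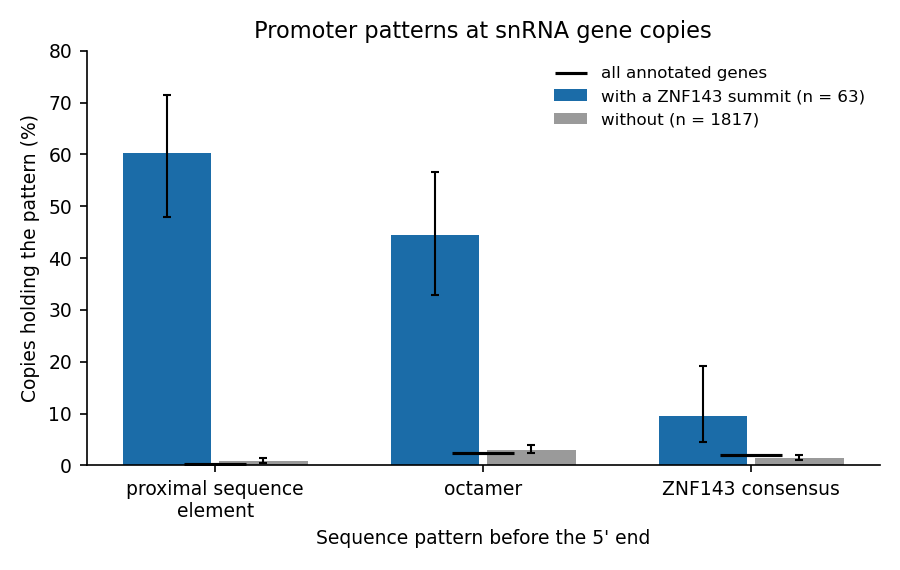
Share of copies holding each sequence pattern (vertical axis, percent, Wilson 95% intervals as error bars) among the 63 copies with a U name and a ZNF143 summit and the 1817 without, with a black line for all annotated genes. The proximal sequence element is at 60.3% against 0.826%, the octamer at 44.4% against 2.97% and the ZNF143 consensus at 9.52% against 1.38%.

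The patterns were divided by U type. The proximal sequence element as searched was found at 22 of 24 occupied U1 copies with a gene symbol, at all 13 copies of the U2 array and at 2 of 5 occupied U6 copies with a gene symbol, but at none of the 8 occupied U5 copies. U5 copies instead held the octamer at 7 of 8 and the ZNF143 consensus at 5 of 8. No U1 copy with a ZNF143 summit held the octamer or the consensus in the exact letters searched. Where a copy had both a pattern and a summit, the order was nearly constant. At all 13 copies with a gene symbol and an octamer the ZNF143 summit lay downstream of it, by a median of 88 bp, and at all 26 with a proximal sequence element it lay upstream of that element, at a median of −77.5 bp from its first base. The 5 copies with a gene symbol and the ZNF143 consensus had the summit 58 to 93 bp downstream of the consensus and not on it. In occupied copies the octamer stood at a median of −221, and in unoccupied ones at −143.

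A few copies held a promoter-like sequence without a ZNF143 summit. RNU2-64P on chromosome 3 has a proximal sequence element at −60, an upstream region 89.2% identical to that of RNU2-1 and a window that is 95.8% unique. RNU1-155P on chromosome 1 has the element at −60 and upstream sequence 89.6% identical to that of RNVU1-23, the copy with the lowest ZNF143 score among the occupied ones. Of the 9 copies named P that hold the element in the exact letters, none had a ZNF143 summit.

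Repeated sequence and neighbouring genes touch these counts, and both were measured. Among copies whose window is at least 80% unique in 31-base words, ZNF143 was found at 21 of 25 with a gene symbol (84.0%) and 6 of 1050 named P (0.571%), much as in all copies. A protein-coding 5′ end lies within 1000 bp of 12 copies named P, and 2 of these 12 had ZNF143, 2 SP1, 5 NRF1 and 3 YY1 summits. Without them 6 of 1749 copies named P had ZNF143, 66 SP1, 17 NRF1 and 46 YY1.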

How the data were processed

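Summits within 500 bp of the 5′ end of each snRNA gene of GENCODE 44 on chromosomes 1 to 22 and X were counted in the authors' 4 deposited lists, which give each summit's position and, from its values and layout, its score, a −log10 value of significance (p or q, not stated which). Per the submitters' processing notes the tools were cutadapt, Bowtie2, SAMtools 1.16.1, MACS3 and bedtools on hg38, with no roles given. The SP1 and ZNF143 lists are tied to untreated and treated samples by the labels, and the NRF1 and YY1 lists only by their names. The lowest score was just above 2.00 in each list. Offsets and scores are those of the highest-scoring summit. A copy's window was rated by the share of its 31-base words that occur once in the assembly, and identity was the edit distance (edlib 1.3.9.post1) to copies with a gene symbol of the same U type. Fisher's exact tests and Wilson 95% intervals were computed in scipy 1.17.1, with a threshold of 0.05. Odds ratio intervals use the normal approximation on the log scale, with 0.5 added to each count where 1 was 0. Intervals cover counting only. The counting was tested on simulated positions. Genes were named by rule: copies not ending in P with the 4 highest ZNF143 scores of their type and up to 8 without a ZNF143 summit, the 10 highest P copies and, per other list, the 3 highest copies lacking ZNF143, the last pair of sets without a protein-coding 5′ end within 1000 bp. Other copies with a gene symbol, every copy with a ZNF143 summit and copies with near-identical genes or promoters were named after their values were seen. The members and lists were chosen with earlier results of these data known. Signal tracks and mock samples were not analysed here. A few items named by these rules are not reported here.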

Additional observations from a re-analysis of the deposited data

Results flagged for a closer look

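The gene of RNU1-1 also occurs once without any difference outside chromosomes 1 to 22 and X, on a contig that the counts above leave out. A ZNF143 summit with a score of 4259 lay at −134 from that copy's 5′ end, above the scores of RNU1-1 to RNU1-4 and in the same place. It is given here because it lies in data outside the main counts. The ZNF143 list holds 408 summits on 112 sequences other than chromosomes 1 to 22, X and Y. The SP1, NRF1 and YY1 lists hold 0 summits on such sequences, so no value of theirs exists for this copy.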

How the results depend on the processing

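No paired analysis was possible because the lists hold no value per sample. The 4 comparisons of P names and the octamer kept their direction and stayed past the threshold under all 10 alternatives each (windows of 250 and 1000 bp, the top 50% of each list, without copies near protein-coding genes, unique copies only, without regions skipped in the numbering of NRF1 or YY1 peaks, U6 only, and others), with odds ratios of 100 to 1150 for ZNF143, 6.52 to 131 for SP1, 16.7 to 250 for NRF1, 9.65 to 159 for YY1 and 2.88 to 66.0 for the octamer. Leaving out copies named by type only, leaving out U1 and U2, and keeping P names only were chosen after seeing the data. The proximal sequence element kept both under 9 of its 10, with odds ratios of 41.2 to 246, of 48.8 without U1 and U2 copies and of 53.6 among unique copies. The consensus was at 24.7 and 23.4 under these 2 settings. Among P names only, the proximal sequence element had an odds ratio of 0 (0 of 8 copies against 9 of 1753, exact test, adjusted p = 1) and the ZNF143 consensus one of 10.3 (adjusted p = 0.162), with 8 occupied copies left. In the exact test the consensus also missed the threshold among U6 copies only (odds ratio 10.1, adjusted p = 0.113, 7 occupied copies) and with 1 mismatch allowed (1.37, adjusted p = 0.249). The share of copies with a ZNF143 summit was 2.44% among unique copies and 2.65% without the skipped regions. With 250 bp, 1000 bp and the top 50% it was 4.78%, 9.39% and 4.83% for SP1, 2.49%, 4.14% and 2.28% for NRF1, and 3.98%, 8.01% and 3.56% for YY1. The median ZNF143 offset stayed between −136 and −133 for names not ending in P and at −133.5 for P names. Depth per sample is not in the lists, so a missing summit may lie below their threshold.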
